A study of Mus musculus with 12 samples.

Results

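The endothelial identity genes are 10 genes whose products mark the cells that line blood vessels: Pecam1, Cdh5, Kdr, Flt1, Tek, Tie1, Vwf, Cldn5, Nos3 and Emcn. The list was drawn up with earlier results of these data known. Its genes were taken from the gene table by their mouse symbols, and all 10 were found among the 49315 genes there. All 10 also passed the filter on low counts that left 18702 genes for testing, and no library held fewer than 178 counts of any of them.

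The study sequenced RNA of white adipose tissue, which its methods give as the epididymal depot, from male mice, in 12 libraries. Every mouse ate a high-fat diet (60% of calories from fat) for 12 weeks. The 4 groups of 3 libraries were Mir181a2b2 flox/flox mice given vehicle (flox vehicle, replicates 1, 3 and 4), Mir181a2b2-/- mice given vehicle (KO vehicle, replicates 1, 2 and 3), flox mice injected once a week with methotrexate at 1 mg/kg (flox MTX, replicates 1, 2 and 4) and KO mice on the same regimen (KO MTX, replicates 2, 3 and 4). The flox mice were the controls, with the Mir181a-2 and Mir181b-2 genes flanked by loxP sites and left in place. The KO was systemic, so the loss of both microRNAs was not limited to the endothelium. The labels give neither the age of the mice nor the genetic background. They do not say that each library came from its own mouse, so the p-values measure the spread between these libraries.

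The endothelium is the single layer of cells lining all blood vessels, and in fat it carries lipids, hormones and leukocytes between blood and adipocytes. Its cells hold together through VE-cadherin, PECAM1 and claudin-5, grow and survive on vascular endothelial growth factor (VEGF) and angiopoietin signals from neighbouring cells, store von Willebrand factor for clotting and make nitric oxide to relax the vessel wall. The miR-181 family is best known in this setting for restraining inflammatory signaling in endothelial cells.

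The deleted microRNAs are shown because the endothelial genes were searched for matches to their seed, bases 2 to 8, printed in capitals. Both mature strands are from RefSeq (GRCm38.p6, plus strand), miR-181a-5p from Mir181a-2 at chr2:38852741-38852763 and miR-181b-5p from Mir181b-2 at chr2:38853845-38853868.
miR-181a-5p: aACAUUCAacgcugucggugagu
miR-181b-5p: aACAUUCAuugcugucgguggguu
The deletion could not be checked in these libraries, since Mir181a-2 reached at most 2 counts and Mir181b-2 0 counts in any library. The seed is the same in both. Its complement in DNA letters, TGAATGT, was not found in the longest annotated 3' untranslated region of any of the 10 endothelial identity genes (495 to 3971 bases, GENCODE M21), while 17.4% of 15376 tested genes with such a region held at least 1 copy. This says only that these letters were not in those stretches. Shorter matches and other parts of the transcripts were not searched, so a direct effect was not tested.

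The promoters of the 4 receptor tyrosine kinases are shown because these are 2 pairs of related receptors, for VEGF (Kdr and Flt1) and for angiopoietins (Tek and its partner Tie1). Each stretch holds the 250 bases before the annotated start and the 50 after it, from RefSeq (GRCm38.p6), written 5' to 3' on the strand of the gene. Capitals mark GGAAG, a motif bound by ETS factors such as ERG and FLI1, or its reverse complement CTTCC. Shorter forms of the ETS motif were not searched, so 0 matches does not mean that no ETS site is there. Kdr is at chr5:75978406-75978705 (minus strand), Flt1 at chr5:147725962-147726261 (minus strand), Tek at chr4:94739039-94739338 (plus strand) and Tie1 at chr4:118489800-118490099 (minus strand).
Kdr: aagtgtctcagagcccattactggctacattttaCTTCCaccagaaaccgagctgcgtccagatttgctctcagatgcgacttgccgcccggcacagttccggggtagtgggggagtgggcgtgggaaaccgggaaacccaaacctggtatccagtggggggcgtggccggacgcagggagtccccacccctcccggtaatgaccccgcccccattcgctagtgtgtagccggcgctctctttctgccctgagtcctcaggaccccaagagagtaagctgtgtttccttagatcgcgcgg
Flt1: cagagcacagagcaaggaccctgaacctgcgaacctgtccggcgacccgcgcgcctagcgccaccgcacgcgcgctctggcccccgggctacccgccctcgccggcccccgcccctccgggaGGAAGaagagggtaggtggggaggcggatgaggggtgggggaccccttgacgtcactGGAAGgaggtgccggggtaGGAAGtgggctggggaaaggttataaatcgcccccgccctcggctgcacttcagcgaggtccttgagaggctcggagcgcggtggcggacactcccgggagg
Tek: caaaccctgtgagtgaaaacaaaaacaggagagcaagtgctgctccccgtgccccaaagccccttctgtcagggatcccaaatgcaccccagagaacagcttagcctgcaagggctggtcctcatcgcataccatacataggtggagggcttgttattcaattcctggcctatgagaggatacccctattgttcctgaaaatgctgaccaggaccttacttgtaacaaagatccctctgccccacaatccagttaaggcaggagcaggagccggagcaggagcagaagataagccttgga
Tie1: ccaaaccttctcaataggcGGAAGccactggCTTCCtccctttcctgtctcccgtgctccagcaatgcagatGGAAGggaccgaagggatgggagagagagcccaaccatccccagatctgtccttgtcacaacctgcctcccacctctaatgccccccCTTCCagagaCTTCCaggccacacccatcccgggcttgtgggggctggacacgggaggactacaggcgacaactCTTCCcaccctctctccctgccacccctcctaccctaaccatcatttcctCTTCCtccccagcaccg
The GGAAG motif occurred 1 time in the Kdr stretch, 3 times in Flt1, 0 times in Tek and 7 times in Tie1. RefSeq promoters were at hand for 6 of the 10 genes (these 4, Cldn5 and Emcn). Emcn held the GGAAG motif 2 times and Cldn5 0 times, so 4 of 6 carried it, beside 71.4% of 32851 mouse promoters of the same length. On either strand, a GATA motif (AGATAA) stood in 1 of 6 (11.2% of all promoters), a SOX motif (ACAAT) in 2 (31.0%), a KLF/SP motif (GGGCGG) in 3 (35.7%), a TATA box (TATAAA) in 1 (13.6%) and an E-box (CANNTG) in 5 (72.3%). These counts describe letters and not occupied sites.

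The 12 libraries held 19495310 to 23976469 counts. Levels of single genes are given as CPM, the counts of a gene scaled to a common library total, after TMM scaling, while sums over a gene list are given as CPM of all counts of the library, without TMM. Differences are log2 fold changes with a standard error from edgeR's quasi-likelihood test, with p-values adjusted over all 18702 genes by the Benjamini-Hochberg method, and a gene was called when its adjusted p was below 0.1 and its fold at least 1.5. The tissue label was checked against a list of 15 adipocyte genes, which summed to between 12399 and 50260 CPM. The flox vehicle libraries stood apart, since 26 epididymis genes summed to 1961 to 17832 CPM there against 7.33 to 19.4 in KO vehicle, 6.15 to 579 in flox MTX and 1.90 to 16.9 in KO MTX, with replicate 3 the highest and replicate 4 the lowest of flox vehicle. A list of 12 testis germ cell genes had all 12 called lower in KO vehicle, and also in flox MTX, than in flox vehicle. Of all tested genes, 17.8% and 16.1% were called lower in these comparisons.

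Endothelial genes were higher in the fat of KO than of flox mice on vehicle. Of the 10, 8 were called higher and none lower, and the same 8 had every KO library above every flox library. How many of all tested genes were separated in this way was not counted. In the whole table, 13.9% of tested genes were called higher and 17.8% lower in this comparison. The median log2 fold change of the 10 was 1.06, beside -0.06 over all tested genes. In whole tissue, more endothelial cells and more RNA per endothelial cell cannot be told apart. Every flox vehicle library also carried epididymis genes (1961 to 17832 CPM, against 7.33 to 19.4 in KO vehicle). The part of such tissue in the endothelial difference was not tested. With flox vehicle replicates 1 and 3 left out together, the pair richest in epididymis genes, none of the 10 was called and 7.07% of all genes were, with the lone flox vehicle library assumed to vary like the others. The median was then 1.07.

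**Figure D1:**
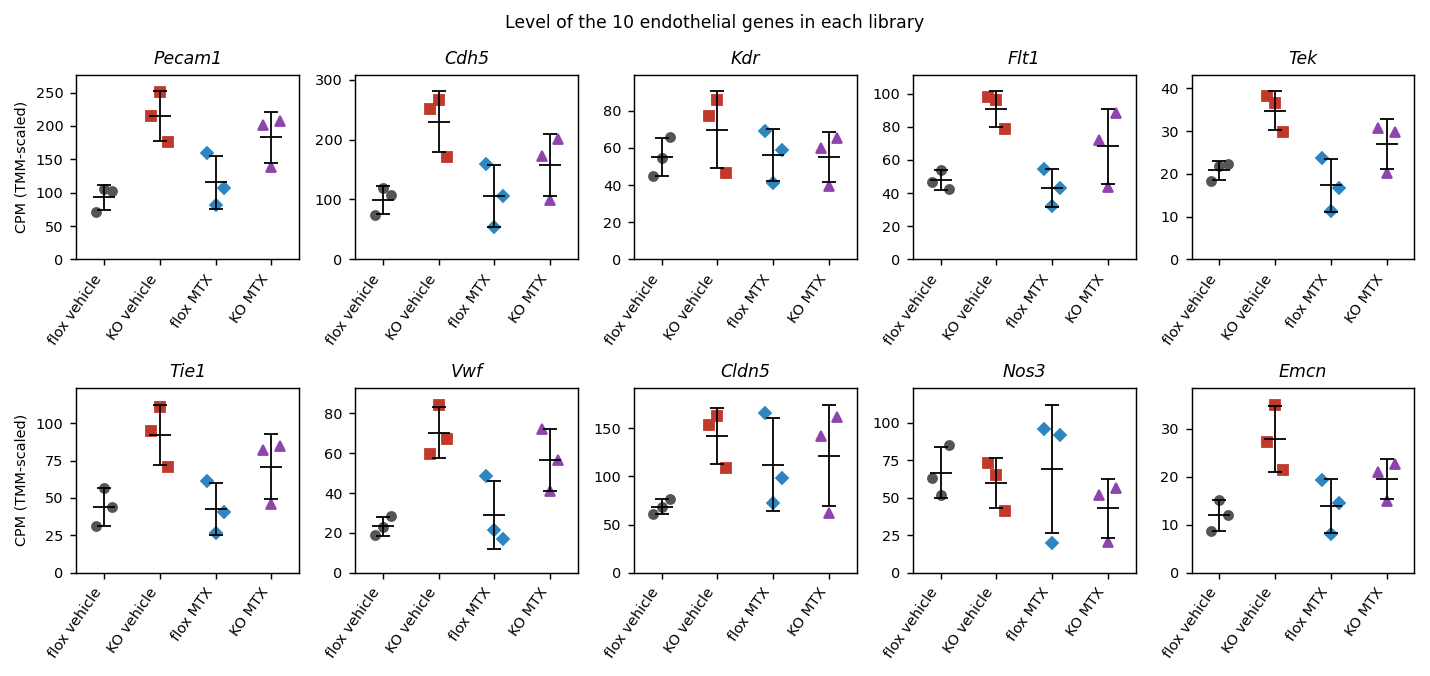
TMM-scaled CPM (linear axis from 0) of each of the 10 endothelial genes in the 12 libraries, by group. Points are libraries and bars are the mean and SD of 3. KO vehicle lies above flox vehicle without overlap in 8 panels, while the groups overlap for Kdr and Nos3.

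The junction genes rose together. Pecam1, the platelet and endothelial adhesion molecule at the borders between endothelial cells (chr11:106654217-106750628, minus strand, GRCm38), stood at 71.0, 105 and 103 CPM in the flox vehicle libraries and at 215, 251 and 176 CPM in KO vehicle. The lowest KO library was far above the highest flox library, and the log2 fold change was 1.2 (SE 0.27, adjusted p = 0.00749). Pecam1 is also made by platelets and leukocytes. Cdh5, which encodes VE-cadherin, the adhesion protein of endothelial adherens junctions (chr8:104101625-104144511, plus strand), read 73.3, 118 and 107 CPM in flox vehicle and 251, 266 and 171 CPM in KO vehicle, a log2 fold change of 1.2 (SE 0.38, adjusted p = 0.0347). Cldn5, the main claudin of endothelial tight junctions and a gene of 1 exon (chr16:18776847-18778262, plus strand), had tightly grouped flox values of 61.5, 68.0 and 76.5 CPM and KO values of 154, 163 and 109 CPM. Its log2 fold change was 1.05 (SE 0.36, adjusted p = 0.05). Replicate 3 was the lowest KO library for all 3 genes. The Cdh5 call was lost without flox vehicle replicate 1 (log2 fold change 1.03). The Cldn5 call was lost in 4 fits, each without 1 of flox vehicle replicates 1 and 3 or KO vehicle replicates 1 and 2.

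Of the VEGF receptors Flt1 was called and Kdr was not. Flt1, the VEGF receptor 1 that binds VEGF tightly and also exists as a soluble decoy (chr5:147561604-147726011, minus strand), measured 46.6, 54.1 and 42.3 CPM in flox vehicle and 97.7, 96.0 and 78.4 CPM in KO vehicle. The groups were well separated, with a log2 fold change of 0.93 (SE 0.25, adjusted p = 0.0186). Kdr, the VEGF receptor 2 that carries the main growth signal in endothelial cells (chr5:75932827-75978458, minus strand), measured 45.1, 54.7 and 65.7 CPM in flox vehicle and 77.0, 85.8 and 46.5 CPM in KO vehicle. A pair of KO libraries lay above all flox libraries and KO replicate 3 lay near the lowest of them, so the groups overlapped. The log2 fold change of Kdr was 0.34, with a 95% interval from -0.26 to 0.94 (adjusted p = 0.380), which does not show that Kdr was the same in both genotypes. It overlaps the interval of Flt1, and the difference between these receptors was not tested directly.

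Both angiopoietin receptor genes rose. Tek encodes TIE2, the receptor that angiopoietins bind (chr4:94739289-94874976, plus strand), and its levels were low and even: 18.2, 21.9 and 22.2 CPM in flox vehicle, and 38.1, 36.6 and 29.7 CPM in KO vehicle. Its log2 fold change of 0.74 (SE 0.25, adjusted p = 0.0462) was the lowest among the 8 genes called. Tie1, the partner of TIE2 with no well established ligand of its own (chr4:118471191-118490061, minus strand), read 31.3, 56.8 and 43.6 CPM in flox vehicle and 94.6, 111 and 70.9 CPM in KO vehicle, a log2 fold change of 1.07 (SE 0.34, adjusted p = 0.0355). Without flox vehicle replicate 1 or without KO vehicle replicate 2 neither of these was called, and Tek was also lost without KO vehicle replicate 1.

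Vwf had the widest difference of the 10. It encodes von Willebrand factor, the clotting protein that endothelial cells store and secrete (chr6:125546774-125686679, plus strand), and rose from 18.7, 23.0 and 28.3 CPM in flox vehicle to 59.7, 84.4 and 67.1 CPM in KO vehicle. That is a 3.02-fold difference (log2 1.59, SE 0.36, adjusted p = 0.00817), with the lowest KO value above the highest flox value by more than the range within flox. Megakaryocytes and platelets also make this protein. Of 12 platelet genes, 8 were measured well enough to test and 5 of those were called higher in KO vehicle, beside 13.9% of all tested genes. The platelet list summed to 37.2 to 62.1 CPM in flox vehicle and 86.3 to 119 CPM in KO vehicle. The part of platelets in the Vwf value was not tested. Emcn, the sialomucin endomucin found on capillary and venous endothelium (chr3:137341067-137432185, plus strand), was the scarcest by CPM, at 8.68, 15.1 and 12.0 in flox vehicle and 27.1, 35 and 21.4 in KO vehicle. Its log2 fold change was 1.22 (SE 0.32, adjusted p = 0.0163).

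Nos3 was not called. It encodes the endothelial nitric oxide synthase (chr5:24364810-24384474, plus strand) and measured 63.5, 51.7 and 85.4 CPM in flox vehicle and 73.6, 64.9 and 41.2 CPM in KO vehicle. The groups overlapped, and the log2 fold change was -0.16 with a wide 95% interval from -1.30 to 0.99 (adjusted p = 0.847). Nos3 shares 1334 exonic bases with Atg9b and Gm15587 on the opposite strand, and whether counting used strand is not given in the sources used here. Those partners held 355 and 234 counts over the 12 libraries together.

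**Figure D2:**
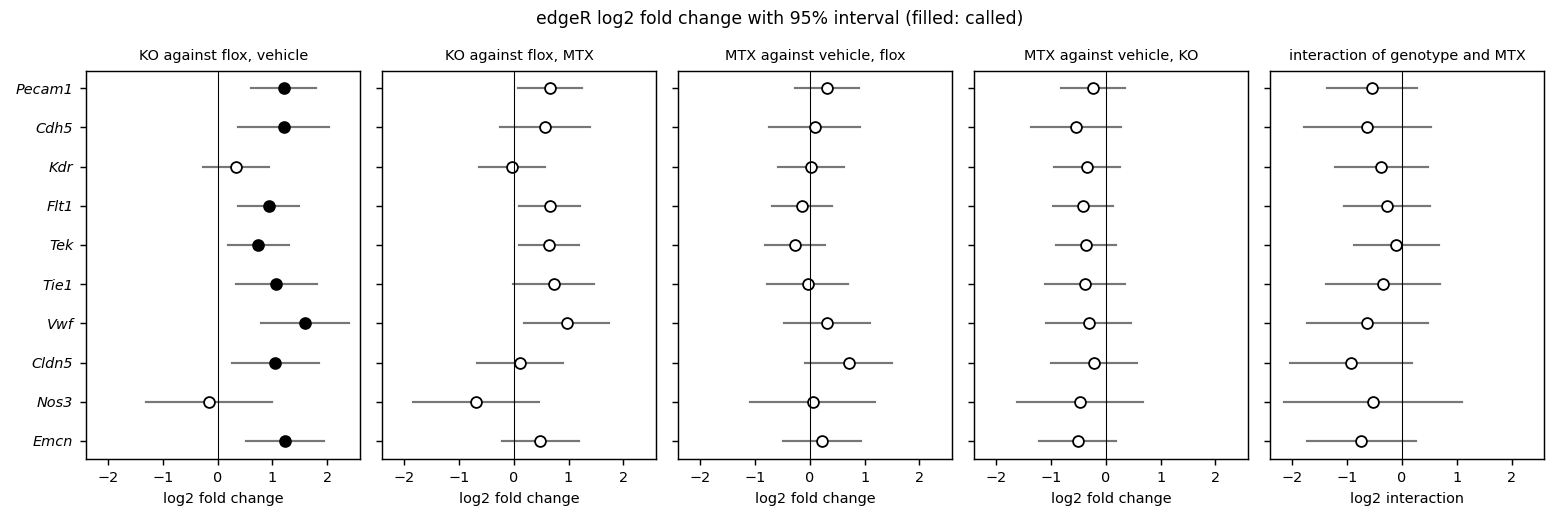
edgeR log2 fold change (points) with 95% interval (lines) of the 10 endothelial genes in the 4 pairwise comparisons and the interaction of genotype and MTX. Filled points passed the call rule. The 8 filled points are all in the vehicle comparison of KO against flox, and all 10 points lie below 0 for MTX in KO mice.

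The difference of Kdr and Nos3 from the rest was measured within each library as the log2 CPM of a gene minus the mean log2 CPM of the other 9. For Kdr and Nos3 the other 9 include the 8 genes called higher, so a gene with no change of its own would also fall on this scale. Relative to the others, Nos3 fell by 1.21 from flox vehicle (mean 0.65) to KO vehicle (mean -0.55), and Kdr fell by 0.68, from 0.36 to -0.32. Vwf moved the other way, by 0.76, from -1.02 to -0.27. Pecam1 (0.33), Cdh5 (0.32) and Tek (-0.20) moved by less. All 6 genes had no overlap between the genotypes on this scale. With 3 against 3, that alone gives an exact two-sided permutation p = 0.1, the smallest possible (0.25 after adjustment over the 40 such comparisons). For Kdr and Nos3, singled out because they were not called in the same libraries, it is no separate evidence. The remaining genes overlapped, Emcn among them (0.35). Under MTX the same differences between KO and flox were -1.08 for Nos3 (exact p = 0.3), -0.55 for Kdr (exact p = 0.1) and 0.70 for Vwf (exact p = 0.1).

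**Figure D3:**
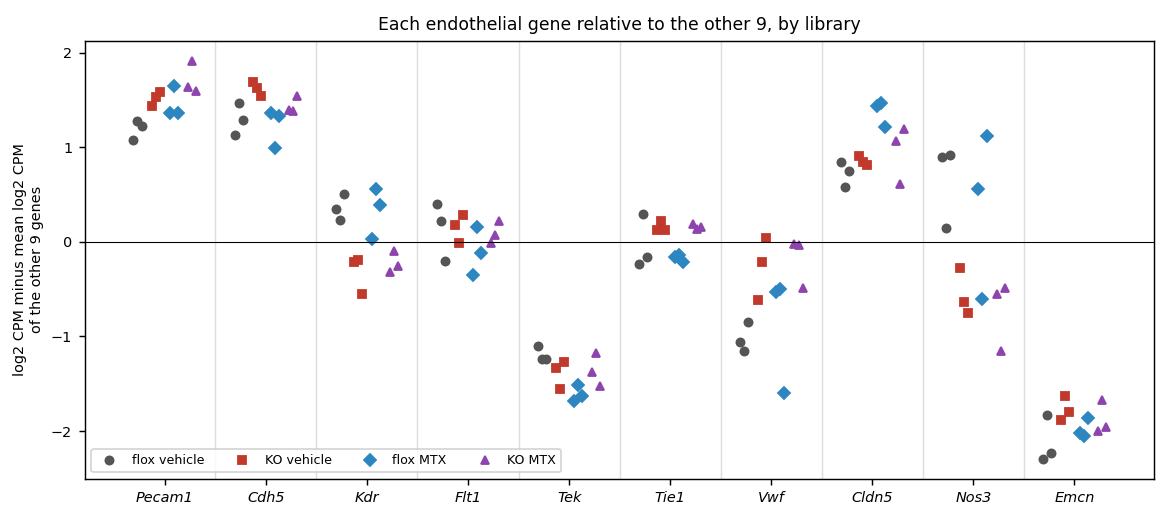
Log2 CPM of each endothelial gene minus the mean log2 CPM of the other 9, in each of the 12 libraries, by group. Kdr and Nos3 are lower and Vwf higher in KO vehicle than in flox vehicle, without overlap, and Cldn5 is higher in flox MTX than in flox vehicle.

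Per kilobase of merged exon, Cldn5 was the most abundant of the 10 in every group, at 48.5 CPM per kb in flox vehicle, 100.3 in KO vehicle, 79.3 in flox MTX and 86.0 in KO MTX. Cdh5 came second in every group, at 23.7 and 54.6 CPM per kb in flox and KO vehicle, and Vwf, a long transcript, came last in all 4, with 1.45 in flox vehicle and 4.38 in KO vehicle. Nos3 was the third in flox vehicle, at 16.2 CPM per kb, where its range overlapped that of Cdh5 above and Pecam1 below (14.9). In KO vehicle it was the fifth, at 14.5 CPM per kb, below Pecam1 (34.4) and Tie1 (18.7), with ranges that overlapped those of Tie1 alone. As a share of the summed per-kb level of the 10 genes, Nos3 was 12.5% ± 2.88 (SD, n = 3) in flox vehicle, 5.66% ± 0.762 in KO vehicle, 9.53% ± 4.59 in flox MTX and 4.98% ± 0.762 in KO MTX. Kdr took 4.69% ± 0.305 in flox vehicle and 3.0% ± 0.324 in KO vehicle. The order from Tek to Vwf was less settled, since in KO vehicle the ranges of Kdr, Tek, Flt1, Emcn and Vwf each overlapped that of the next gene.

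Under MTX the genotype difference was not called for any of the 10 genes. The call rule was passed by 0 of all 18702 genes in either direction (0%, smallest adjusted p 0.104), although 4576 genes had an unadjusted p below 0.05, and DESeq2 called 2769 (14.8%). Without flox MTX replicate 2, edgeR called 4064 genes. Of the 10 endothelial genes, 8 had estimates above 0 for KO MTX against flox MTX, with a median log2 fold change of 0.61 beside -0.05 over all tested genes, and 4 had an unadjusted p below 0.05 (Pecam1, Flt1, Tek and Vwf). Vwf, with 48.7, 21.3 and 17 CPM in flox MTX and 72.0, 41.3 and 56.6 CPM in KO MTX, had the highest estimate (log2 0.96, adjusted p = 0.143). Flox MTX replicate 1 overlapped the KO libraries in this gene, and Vwf was called without it (log2 1.58). Pecam1 read 159, 81.1 and 107 CPM in flox MTX and 202, 139 and 208 CPM in KO MTX (log2 0.66), and Flt1 read 54.7, 32.0 and 42.8 CPM against 72.3, 43.9 and 88.2 CPM (log2 0.66). Each time the lowest KO library was replicate 3 and it lay below the highest flox library. DESeq2 called Flt1 and Vwf. Cldn5 was near even, at 166, 72.9 and 98.0 CPM in flox MTX and 142, 61.7 and 162 CPM in KO MTX (log2 0.12). Nos3 stood at 96.1, 19.95 and 92.1 CPM in flox MTX and at 51.6, 20.5 and 56.9 CPM in KO MTX (log2 -0.69), and was called lower without flox MTX replicate 2 (log2 -1.13).

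MTX itself was followed by no called change in these genes. In flox mice 0 of the 10 were called, while the call rule took 8.09% of all tested genes as higher under MTX and 16.1% as lower. Their log2 fold changes ran from -0.27 (Tek) to 0.71 (Cldn5), with a median of 0.07 beside 0.05 over all genes, and neither an unadjusted p below 0.05 nor a DESeq2 call was found for any of them. Cldn5 came nearest (adjusted p = 0.189), with flox MTX replicates 1 and 4 above every flox vehicle library and replicate 2 inside the vehicle range. Relative to the other 9 genes its level was higher by 0.65 on the log2 scale, without overlap (exact two-sided permutation p = 0.1, the smallest possible, 0.25 adjusted over 40). It was called without flox MTX replicate 2 (log2 0.95), and also without KO MTX replicate 3, a library that enters only through the shared estimate of the spread. The median was -0.28 without flox MTX replicate 1 and 0.46 without replicate 2. In KO mice all 10 estimates were below 0, from -0.54 (Cdh5) to -0.22 (Cldn5), with a median of -0.37 beside -0.01 over all genes, but again 0 of 10 were called (adjusted p from 0.738 to 0.918, 0 with an unadjusted p below 0.05 and 0 by DESeq2). No tested gene in the table was called for MTX in KO mice, in either direction (0%, 1491 genes at an unadjusted p below 0.05), while DESeq2 called 281. Cdh5 went from 251, 266 and 171 CPM in KO vehicle to 173, 99.7 and 200 CPM in KO MTX, with most of the distance in KO MTX replicate 3.

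The interaction, which asks whether MTX acted differently in KO and flox mice, was called for 0 of the 10 genes, beside 0.898% of all tested genes with a positive and 0.0909% with a negative call. Its estimates were all negative, from -0.93 (Cldn5) to -0.10 (Tek) on the log2 scale, with adjusted p from 0.409 to 0.911, and 0 of the 10 had an unadjusted p below 0.05 or a DESeq2 call. This comparison shares the flox vehicle libraries with the vehicle comparison and uses all 4 groups, so the signs are not separate evidence.

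The libraries low in endothelial genes were low in most of them at once. After the group means were removed, the 45 pairs of the 10 genes had correlations from 0.43 to 0.98 over the 12 libraries (median 0.86), none of them negative, as a description over libraries that share depth and scaling. The 10 genes summed to 447 to 616 CPM of all counts in flox vehicle, 834 to 1284 in KO vehicle, 375 to 756 in flox MTX and 560 to 986 in KO MTX. The lowest library of a group was replicate 3 in KO vehicle, replicate 2 in flox MTX and replicate 3 in KO MTX. Each of these was also the library of its group with the highest sum of 18 macrophage genes, at 12959, 7723 and 16127 CPM in that order. Flox vehicle did not share this order, since replicate 1 was the lowest in endothelial genes and replicate 4 the highest in macrophage genes. Between genotypes both lists were higher in KO vehicle, with macrophage sums of 908 to 1606 CPM in flox vehicle and 6688 to 12959 CPM in KO vehicle, and with all 18 macrophage genes called higher in KO vehicle. The share of either cell type in the endothelial values was not tested. Adipocyte sums overlapped between flox vehicle (21860 to 50260 CPM) and KO vehicle (21903 to 35533 CPM). Of the 15 adipocyte genes 3 were called lower, near the 17.8% of all tested genes. The stromal list had 11 of 12 genes called higher and 1 lower. Of all tested genes, 13.9% were called higher in this comparison.

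**Figure D4:**
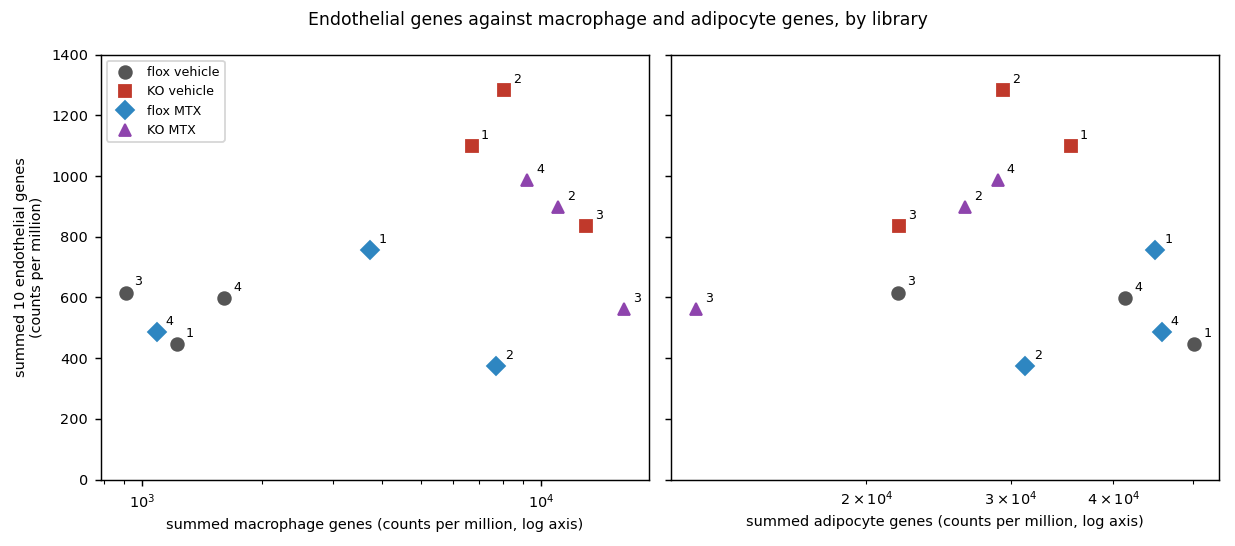
Summed CPM of the 10 endothelial genes against summed CPM (log axis) of 18 macrophage genes (left) and 15 adipocyte genes (right), 1 point a library, numbered by replicate. In KO vehicle, flox MTX and KO MTX the library highest in macrophage genes is the lowest in endothelial genes, and in flox vehicle it is not, while KO vehicle as a group lies above flox vehicle for both the endothelial and macrophage genes. Sums are CPM of all counts, without TMM.

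The 5 genes whose departures from the group means were most like those of the 10, by the mean correlation over the 12 libraries among 18692 other genes, were Kif26a (0.91), Robo4 (0.90), Cdh13 (0.90), Hrasls (0.90) and Erg (0.90). Robo4 encodes an endothelial guidance receptor, Cdh13 a cadherin without a transmembrane segment, and Erg an ETS transcription factor of endothelial cells.

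Other endothelial genes went the same way in KO vehicle. Of 21 further surface and signaling genes of endothelium, 16 were called higher and none lower, with a median log2 fold change of 1.02, against the background of 13.9% called higher. They were led by Plvap, the protein of the diaphragms across fenestrae and caveolae (1.99), Calcrl, the receptor for adrenomedullin (1.92), and Cd93 (1.68). Of 18 tested transcription factors of endothelial cells, 11 were called higher and none lower, with Hhex at 2.03, Klf4 at 1.58 and Sox17 at 1.58, and with a median of 0.99. Some of these genes, Klf4 among them, are also used by other cells of fat. Under MTX the same lists had medians of 0.48 and 0.39 between KO and flox, with no gene called. With MTX in flox mice, 7 of the 18 transcription factors and 2 of the 21 surface genes were called higher, beside 8.09% of all tested genes.

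The VEGF and angiopoietin ligands did not move as one group. Vegfa, the main growth factor for vessels and the ligand of Kdr and Flt1, fell from 215, 123 and 158 CPM in flox vehicle to 83.6, 67.6 and 55.5 CPM in KO vehicle (log2 -1.26, SE 0.33, adjusted p = 0.0154). All 3 KO libraries lay below all flox libraries. Angpt2, the angiopoietin that endothelial cells release in remodelling vessels, rose from 5.08, 11.6 and 8.17 CPM to 14.0, 20.2 and 22.7 CPM (log2 1.19, SE 0.33, adjusted p = 0.0212). The co-receptor gene Nrp2 rose by 1.45. Vegfb (log2 -0.30), Pgf (-0.86) and Angpt1 (-0.39) were not called. Of the 11 genes of this list, 4 were called higher and 1 lower, beside 13.9% and 17.8% of all tested genes. Under MTX the KO against flox values of Vegfa (-1.32), Vegfb (-1.17) and Angpt2 (1.31) had no overlap between libraries, with adjusted p of 0.104, 0.111 and 0.104, above the threshold.

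Around Nos3, 5 of 12 partners and competitors of nitric oxide synthesis were called higher in KO vehicle and none lower, beside 13.9% and 17.8% of all tested genes. These included Nostrin, which binds the synthase and carries it to internal membranes (2.25), Gch1, the first enzyme of synthesis of its cofactor tetrahydrobiopterin (1.47), and Arg1, which uses the same substrate, arginine, and is abundant in macrophages (2.99).

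Junction genes beyond Pecam1, Cdh5 and Cldn5 had 2 of 13 called higher and 2 lower, near the shares of all genes (13.9% and 17.8%), with a median of -0.21. Esam, an endothelial adhesion molecule also counted among the 21 surface genes, rose by 1.29, whereas Ocln fell by 5.45 and Cgn fell by 2.04. Ocln and Cgn also serve tight junctions of epithelia, and the epididymis genes fell in the same comparison, with 12 of the 15 tested called lower. The part of epididymal tissue in the junction values was not tested.

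By vessel type, 6 of 13 arterial genes were called higher in KO vehicle (Hey1 1.5, Notch4 1.38 and Sema3g 1.29) and 1 lower (Notch1 -0.87). Of 7 venous genes, 4 were called higher and none lower (Tmem252 1.69, Ackr1 1.37 and Vcam1 1.19). Of 12 capillary genes, 5 were called higher (Ly6c1 1.28, Aqp1 1.2 and Ly6a 1.16) and 1 lower. The lower gene was Car4 (-1.74), the largest change of that list in either direction, with libraries that overlapped. Of 7 lymphatic genes, 5 were called higher and none lower (Lyve1 2.18, Mmrn1 1.76 and Pdpn 1.29). In the whole table, 13.9% of tested genes were called higher and 17.8% lower in this comparison. Lyve1 is also made by resident macrophages, and Pdpn and Ly6a by stromal cells. Among these vessel types, only the lymphatic list had a median that did not stay above 0 between KO and flox under MTX (-0.04, beside 1.23 on vehicle). The VEGF and angiopoietin list also fell below 0 (-0.21, beside 0.56 on vehicle). The changes of these medians were not tested. Gene by gene, the interaction of genotype and MTX was called negative for 1 of the 7 lymphatic genes, beside 0.0909% of all tested genes. Of 11 genes of sprouting tip cells, 5 were called higher in KO vehicle and none lower, beside 13.9% and 17.8% of all tested genes. They were led by Plaur (2.45), Cxcr4 (2.40) and Pdgfb (1.31), the first pair of which leukocytes also make. Of 5 tested genes of endothelial activation, 3 were called higher, beside 13.9% of all tested genes. They were the leukocyte adhesion molecules Icam1 (1.59) and Vcam1 (1.19) and the chemokine-binding receptor Ackr1 (1.37). Vcam1 and Ackr1 were also counted among the venous genes. Which cells made these transcripts was not tested. For the mural cells that wrap vessels, 2 of 12 pericyte and smooth muscle genes were called higher (Pdgfrb 1.1 and Des 0.64), near the 13.9% of all genes, with a median of 0.35. Red blood cell genes, a sign of blood left in the tissue, had 0 of 7 called by edgeR in KO vehicle, although 6 estimates were above 0, with a median log2 of 1.53 and 1 unadjusted p below 0.05. With MTX in flox mice 6 of 7 were called higher (median 2.54), beside 8.09% of all genes.

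**Figure D5:**
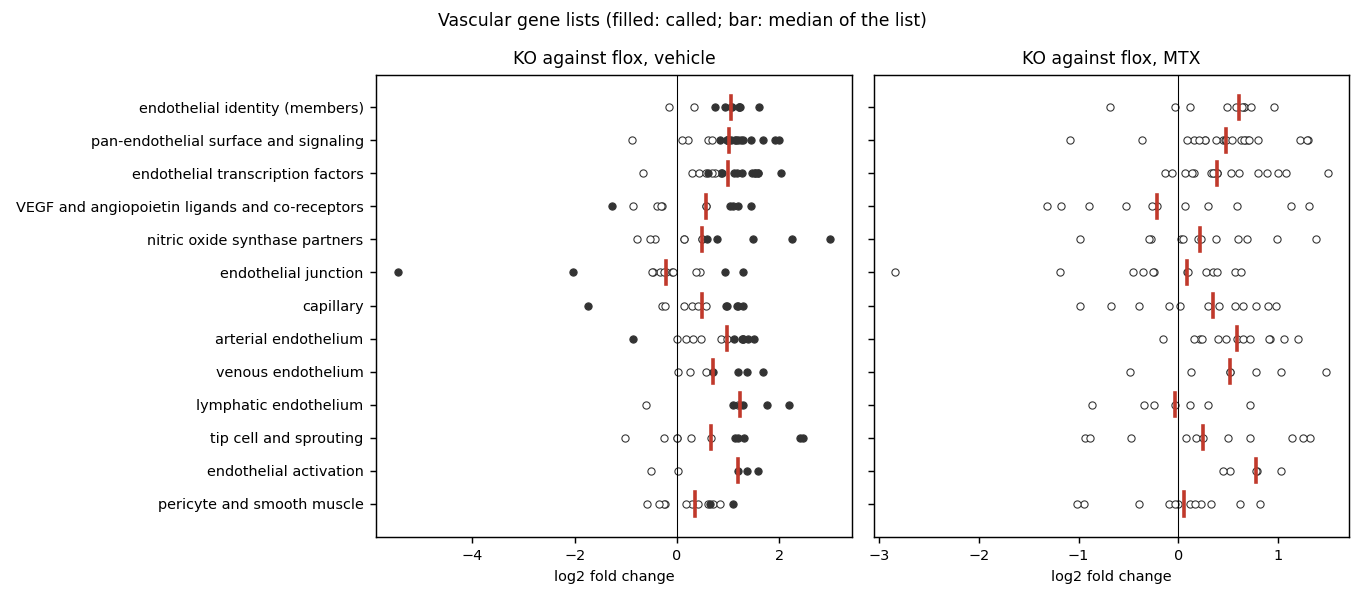
Log2 fold change of every tested gene (points) in 13 vascular lists, for KO against flox on vehicle (left) and on MTX (right), with the list median as a red bar. Filled points passed the call rule. On vehicle the medians of 12 lists lie above 0 and that of the junction list below it, and on MTX no point is filled.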

How the data were processed

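RNA of white adipose tissue from 12 libraries was sequenced by the authors. Per the labels, reads were trimmed with Trimmomatic 0.36 and aligned to GRCm38 with STAR 2.5.2b, and featureCounts (Subread 1.5.2) gave the deposited raw counts per gene. The labels call the RNA polyA, whereas the methods describe ribosomal depletion, so the selection is uncertain. The library totals were 19495310 to 23976469 counts (median 21824170). Genes without a symbol held 0.0688% of the counts.

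The counts were filtered by expression in the groups (18702 genes), scaled by TMM and fitted over all 12 libraries with 1 mean per group in edgeR 4.0.16 (R 4.3.3, quasi-likelihood F test). The call rule asked for a p under 0.1 after Benjamini-Hochberg adjustment and a change of at least 1.5-fold. The fit was tested on simulated counts. DESeq2 1.42.0, other scalings and filters, other thresholds, a replicate block and leaving out each library were the alternatives. The 10 genes, the other gene lists and the tests were chosen with earlier results of these data known. All 10 genes were named, with up to 3 called genes of the largest absolute change without overlap per other list, the 5 genes most like the 10, and 5 ligands (Vegfa, Vegfb, Pgf, Angpt1 and Angpt2). Gene models and lengths came from GENCODE M21 (GRCm38). Replicates of 1 group always differed by more than sampling noise, so each library was kept as 1 sample.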

Additional observations from a re-analysis of the deposited data

How the results depend on the processing

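The count of endothelial identity genes called between KO and flox on vehicle was 8 in the fit as reported, beside 31.7% of all tested genes called. It ran from 4 (without flox vehicle replicate 1, 27.2% of all genes) to 8 when 1 library was left out, with 5 without KO vehicle replicate 2 (28.2%). Without flox vehicle replicates 1 and 3 together, an alternative chosen after seeing the data, it was 0. Under MTX the genotype count of 0 became 2 with DESeq2, which called 14.8% of all genes. That count ran from 0 to 1 when 1 library was left out, as did the count for MTX in flox mice. The genotype count was 1 without flox MTX replicate 1 (0.387% of all genes) or 2 (20.8%). For MTX in flox mice it was 1 without flox MTX replicate 2 (24% of all genes) or KO MTX replicate 3 (25.2%). With the replicate block the vehicle count was 7, beside 27.2% of all genes, with Tie1 no longer called. Same-numbered libraries did not deviate together (3 of 12 pairs had a correlation above 0.1, median 0.04), so the numbers were not taken to pair the mice. No estimate reversed after being called. The medians of the 10 genes moved by less than 0.3914 under every alternative, the pooled SD of a library's median log2 level. For MTX in flox mice the median of 0.07 still became -0.28 without flox MTX replicate 1 and 0.46 without replicate 2. Pecam1, Flt1, Vwf and Emcn were called on vehicle under every alternative except the one without both flox vehicle libraries. With 3 libraries a group, the wide intervals of Kdr and Nos3 hold both a change and none. No library held fewer than 178 counts of any of the 10 genes. The causes of the lost calls were not tested.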
